A study of Mus musculus with 16 samples.

Results

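Cartilage and the fibrocartilage of tendon share a matrix that differs from that of the tensile tendon, and 10 genes of that matrix were followed here: *Col2a1*, *Col11a1*, *Col11a2*, *Acan*, *Chad*, *Ucma*, *Matn3*, *Col9a1*, *Col9a2* and *Col9a3*. They were chosen by name, for what they encode, with earlier results of these data known. The only measured value in the rule was the number of genes detected in a well of the single-cell plates, which had to be 200 or more. All 10 genes were found among the 47729 genes of the tendon count table and among the 29629 genes of the single-cell table. All 10 passed the filter on low counts in the tendon, and 5 of 10 passed it in the plates (*Col2a1*, *Col11a1*, *Chad*, *Col9a2* and *Col9a3*). The adjusted p-values below come from fits across all genes of a table and set each change against the spread between samples.

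The tendon samples were whole Achilles tendons of 14-day-old mice, 2 samples of wild type littermates (Scx_Wt) and 2 samples of mice homozygous for a *Scx* knockout (Scx_KO). *Scx* encodes scleraxis, the transcription factor by which tendon cells are known. The cultured cells came from 1 clone of mouse induced pluripotent stem cells (iPSCs) that carry a *ScxGFP* transgene, and mesodermal cells made from them with the GSK3 inhibitor CHIR and cyclopamine were sampled untreated (T0) and after 3, 6 and 9 days in 10 ng/ml TGF-β2 (T3, T6 and T9). Each time point was held on 3 plates of 384 wells, into which single live cells had been sorted without a marker of cell type, and 4594 of 4608 wells were kept (1147, 1151, 1149 and 1147 cells from T0 to T9). Since no untreated cells were sampled after T0, time in culture, time in reduced serum and TGF-β2 cannot be told apart. Per the paper, serum was reduced the day before TGF-β2 was added. The labels do not say whether the 3 plates of a time point came from separate cultures, so the p-values measure the spread between plates, which may be technical.

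The tendon libraries held 11188270 to 12398560 counted reads. The plates held 1921125 to 4657093 unique molecular identifiers (UMIs), with medians of 10175, 5703, 8794 and 7900 UMIs a cell for the successive time points. The plates fell into 2 kinds, which are named here by the study's own read summary: 7 of 12 had more reads that matched no annotated feature (all of T0, 1 of T3, 2 of T6 and 1 of T9) and 5 had fewer. With every cell thinned to 3000 UMIs, the median number of genes a cell was 1501 to 1702 on the first kind and 1026 to 1352 on the second. As a check of the labels, *Scx* had 1151 and 996 reads in Scx_Wt and 287 and 296 in Scx_KO, and the late tendon marker *Tnmd* (tenomodulin) rose in culture from 0 at T0 to 106 ± 37.9 CPM at T9 (SD, n = 3 plates; CPM are a gene's counts scaled to the library's total). Reads of *Scx* thus remained in the Scx_KO tendons, and which part of the gene they came from is not shown by gene counts.

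In cartilage, fibrils of collagen II (3 identical chains from *Col2a1*) are nucleated by collagen XI, whose chains are encoded by *Col11a1*, *Col11a2* and, again, *Col2a1*. Collagen IX, built from the products of *Col9a1*, *Col9a2* and *Col9a3*, sits on the surface of these fibrils. *Acan* encodes aggrecan, the large proteoglycan that holds water and resists compression, while *Chad* (chondroadherin, a leucine-rich repeat protein that binds cells and collagen), *Matn3* (matrilin-3, an adaptor between fibrils and proteoglycans) and *Ucma* (a small secreted Gla protein of cartilage) are minor components. In tendon such a matrix is known from the enthesis, where tendon meets bone, and from sites pressed against bone. The master regulator of the cartilage programme is SOX9, with SOX5 and SOX6 as its partners.

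Scleraxis is a basic helix-loop-helix protein, and proteins of that class bind E-boxes (CANNTG, the same on both strands), so the 250 bases before the start of a few of the genes are shown, with each E-box in capitals. The genes were picked among those that fell in the tendon, from *Ucma* (no read left in Scx_KO) to *Col11a1* (the smallest fall among those that fell). Of the genes not shown, *Acan* (with an E-box) and *Matn3* (without) also fell. *Col9a1* and *Col9a2* (each with an E-box) did not pass the test described below. The sequences run 5′ to 3′ and are from RefSeq, build GRCm38.p6, whose table held 8 of the 10 genes.
Ucma (chr2:4975872-4976121, + strand): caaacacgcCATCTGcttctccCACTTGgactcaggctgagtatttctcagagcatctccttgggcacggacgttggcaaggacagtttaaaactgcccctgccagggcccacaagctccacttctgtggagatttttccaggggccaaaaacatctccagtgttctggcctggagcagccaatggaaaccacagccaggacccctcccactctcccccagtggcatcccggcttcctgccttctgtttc
Chad (chr11:94564797-94565046, + strand): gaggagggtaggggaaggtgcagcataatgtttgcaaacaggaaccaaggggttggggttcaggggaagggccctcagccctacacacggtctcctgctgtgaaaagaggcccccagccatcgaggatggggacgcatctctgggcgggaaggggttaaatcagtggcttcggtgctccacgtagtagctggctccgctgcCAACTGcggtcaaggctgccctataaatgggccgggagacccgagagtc
Col11a2 (chr17:34038888-34039137, + strand): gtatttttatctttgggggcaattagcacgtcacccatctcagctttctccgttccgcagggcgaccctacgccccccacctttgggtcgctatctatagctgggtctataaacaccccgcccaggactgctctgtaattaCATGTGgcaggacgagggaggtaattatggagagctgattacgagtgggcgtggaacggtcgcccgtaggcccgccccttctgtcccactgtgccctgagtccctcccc
Col11a1 (chr3:114030290-114030539, + strand): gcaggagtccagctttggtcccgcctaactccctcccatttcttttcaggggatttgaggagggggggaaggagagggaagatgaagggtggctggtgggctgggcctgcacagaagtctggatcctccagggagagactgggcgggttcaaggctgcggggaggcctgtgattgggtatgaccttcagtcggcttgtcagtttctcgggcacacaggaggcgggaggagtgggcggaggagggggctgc
An E-box stood in at least 1 window of 6 of the 8 genes (*Ucma*, *Chad*, *Col11a2*, *Acan*, *Col9a2* and, at 1 of its 2 starts, *Col9a1*) and in none of *Col11a1* and *Matn3*. Of 32536 windows of the same length over all genes, 66.2% held one. The letters ACAAT, the core that SOX proteins recognise, were in none of the 9 windows of the 8 genes on either strand and in 27.4% of all windows. These are matches of letters in a short stretch and say nothing of binding there or elsewhere.

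The Scx_KO tendons held far fewer transcripts of most of these cartilage matrix genes. Of the 10 genes, 7 were lower in Scx_KO and none was higher, where 2.07% of the 14602 genes tested were lower and 1.77% were higher (edgeR quasi-likelihood test, Benjamini-Hochberg adjusted p under 0.05). DESeq2 gave the same 7 and 0, and none of the genes had a higher value at an unadjusted p under 0.05. Summed over the 10 genes, the level was 3430 and 3585 CPM in the Scx_Wt samples and 468 and 467 CPM in the Scx_KO samples. The 3 genes that did not pass were those of collagen IX.

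**Figure D1:**
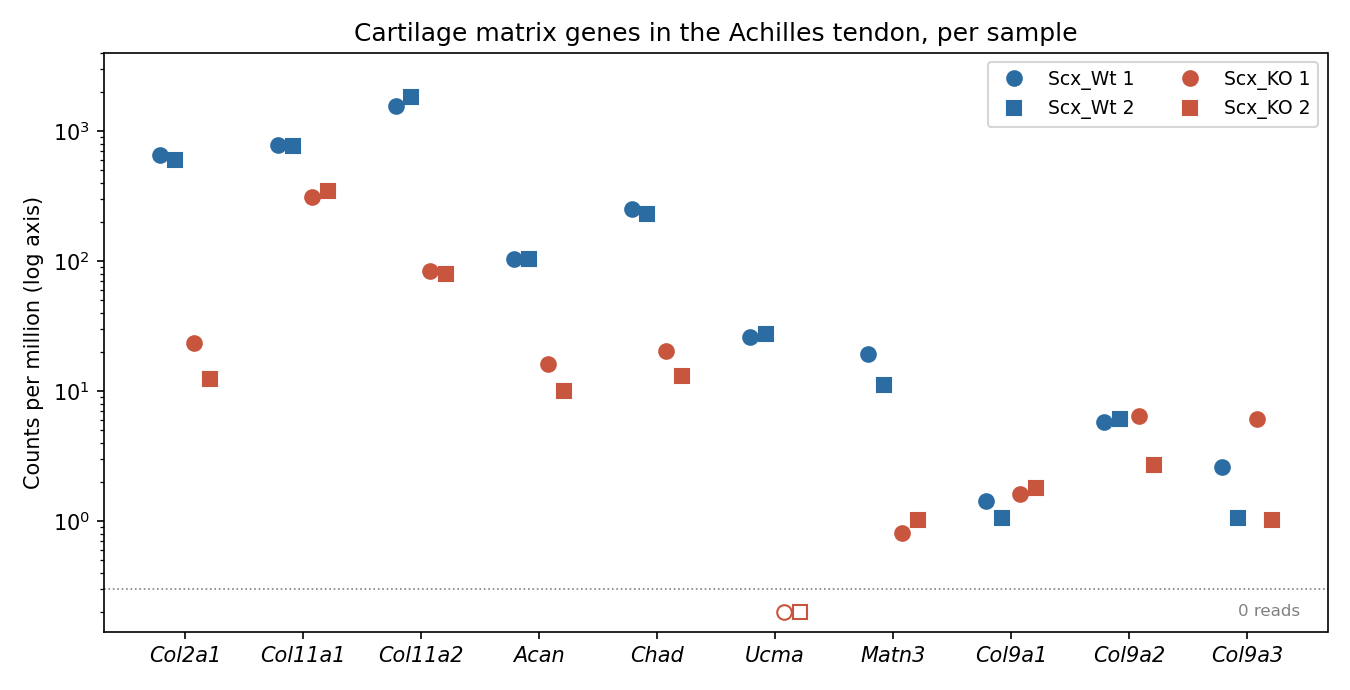
Level of each of the 10 genes in the 4 Achilles tendon samples, in CPM on a log axis; each point is 1 sample, and open points below the dotted line are samples with 0 reads. Both Scx_KO points lie below both Scx_Wt points for the first 7 genes. For *Col9a1* both Scx_KO points lie slightly above both Scx_Wt points, and for *Col9a2* and *Col9a3* the points mix.

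*Col2a1* (chromosome 15, 97975602 to 98004695, GRCm38, minus strand) had 658 and 597 CPM in the Scx_Wt samples and 23.4 and 12.3 CPM in the Scx_KO samples. The groups did not overlap, and the Scx_KO mean was 2.85% of the Scx_Wt mean. The log2 fold change was -5.09 ± 0.29 (SE, n = 2 against 2, adjusted p = 5.18e-05, edgeR). *Col2a1* was thus a well expressed gene in the wild type tendon: by reads per kilobase it ranked 524 and 562 of 23418 genes with any read, and 8991 and 10941 in Scx_KO.

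*Col11a2* (chromosome 17, 34039437 to 34066685) was, per length, the highest of the 10 genes in the wild type tendon. It had 1575 and 1841 CPM in Scx_Wt against 84.0 and 80.0 CPM in Scx_KO, and ranked 131 and 114 by reads per kilobase in Scx_Wt. It fell by 4.34 on the log2 scale (SE 0.23, adjusted p = 5.12e-05, edgeR), 20.8-fold on the CPM scale. *Col11a1* (chromosome 3, 114030540 to 114220718), which encodes the partner chain, had 788 and 765 CPM in Scx_Wt and 309 and 345 CPM in Scx_KO. Its groups did not overlap either, but its log2 fold change was only -1.20 ± 0.18 (adjusted p = 0.00707, edgeR), the smallest among the 7 genes.

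The 2 collagen XI genes therefore changed places. Per kilobase of exon, *Col11a2* stood 3.70 and 4.46 times above *Col11a1* in the Scx_Wt samples, and the same ratio was 0.504 and 0.430 in the Scx_KO samples. The ratio of *Col2a1* to *Col11a1* went from 1.15 and 1.08 to 0.104 and 0.0492. The ratio of *Col2a1* to *Col11a2*, in contrast, was 0.311 and 0.241 in Scx_Wt and 0.207 and 0.114 in Scx_KO, so these 2 genes fell to more similar extents than either did with *Col11a1*. With 2 samples a group no exact test of such a ratio can pass the threshold, and the ratios are given as values.

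**Figure D2:**
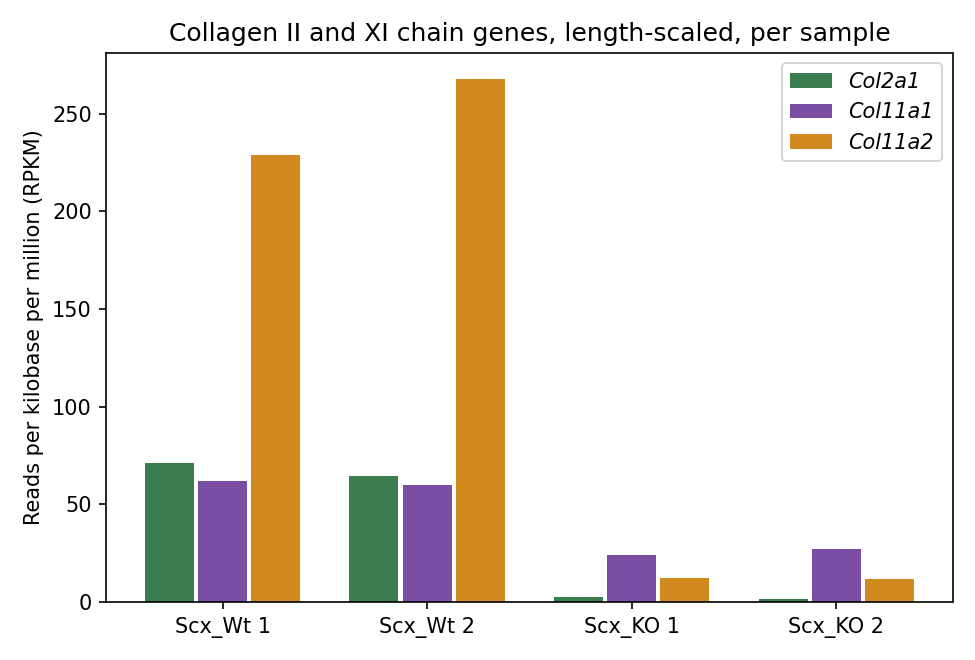
Level of the genes of the collagen II and collagen XI chains in each Achilles tendon sample, in RPKM (linear axis from 0; each bar is 1 sample). *Col11a2* is the tallest bar in both Scx_Wt samples, and *Col11a1* is the tallest in both Scx_KO samples.

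*Chad* (chromosome 11, 94565047 to 94569127) had 250 and 232 CPM in Scx_Wt and 20.2 and 13.2 CPM in Scx_KO, without overlap. The log2 fold change was -3.81 ± 0.21 (adjusted p = 5.12e-05, edgeR). It overlaps *Acsf2*, a gene on the opposite strand, which had 235 and 239 reads in Scx_Wt and 167 and 144 in Scx_KO, far fewer than the 2798 and 2840 reads of *Chad* in Scx_Wt. The strand setting of the counting is not given in the sources used here, and in Scx_KO the 250 and 155 reads of *Chad* are of the same order as those of *Acsf2*.

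*Acan* (chromosome 7, 79053483 to 79115099) had 104 CPM in each Scx_Wt sample and 16.1 and 9.93 CPM in the Scx_KO samples. The fall was -2.95 ± 0.22 on the log2 scale (adjusted p = 0.000137, edgeR), so that aggrecan transcripts were reduced less than those of *Col2a1* or *Col11a2*. *Matn3* (chromosome 12, 8947929 to 8972028) had 215 and 137 reads in Scx_Wt against 10 and 12 in Scx_KO, a log2 fold change of -3.99 ± 0.43 (adjusted p = 0.00115, edgeR). The 2 Scx_Wt samples differed more for *Matn3* than for the other genes that fell, with 19.2 and 11.2 CPM.

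*Ucma* (chromosome 2, 4976122 to 4985748) was the only one of the 10 genes without a read in one genotype. It had 290 and 338 reads in the Scx_Wt samples (25.9 and 27.6 CPM) and 0 in both Scx_KO samples. Against the 3 reads that a count of 0 allows over both Scx_KO libraries together (0.124 CPM), the Scx_Wt level was at least 216-fold higher (adjusted p = 7.93e-05, edgeR). This bound covers counting error only.

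The genes of collagen IX were low in every tendon and went no common way. *Col9a1* (chromosome 1, 24177610 to 24252684) had 16 and 13 reads in Scx_Wt and 20 and 21 in Scx_KO. In CPM these were 1.43 and 1.06 against 1.61 and 1.78, higher in Scx_KO without overlap. *Col9a2* (chromosome 4, 121039385 to 121055322) had 65 and 75 reads in Scx_Wt and 80 and 32 in Scx_KO. *Col9a3* (chromosome 2, 180597790 to 180622189) had 29 and 13 reads in Scx_Wt and 76 and 12 in Scx_KO, and it overlaps *Tcfl5* on the opposite strand, with 31 to 45 reads a sample. The log2 fold changes were 0.50 ± 0.71, -0.34 ± 0.47 and 1.02 ± 0.82 (adjusted p = 0.779, 0.770 and 0.584, edgeR). Their 95% intervals, -1.09 to 2.08, -1.40 to 0.71 and -0.83 to 2.86, leave out falls as large as those of *Col2a1* or *Col11a2*. They include a change of 2-fold in either direction for *Col9a1*, a 2-fold fall for *Col9a2* and a 2-fold rise for *Col9a3*. For *Col9a2* and *Col9a3* the direction was set by 1 library: it turned to 0.12 for *Col9a2* without Scx_KO replicate 2 and to -0.73 for *Col9a3* without Scx_KO replicate 1.

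**Figure D3:**
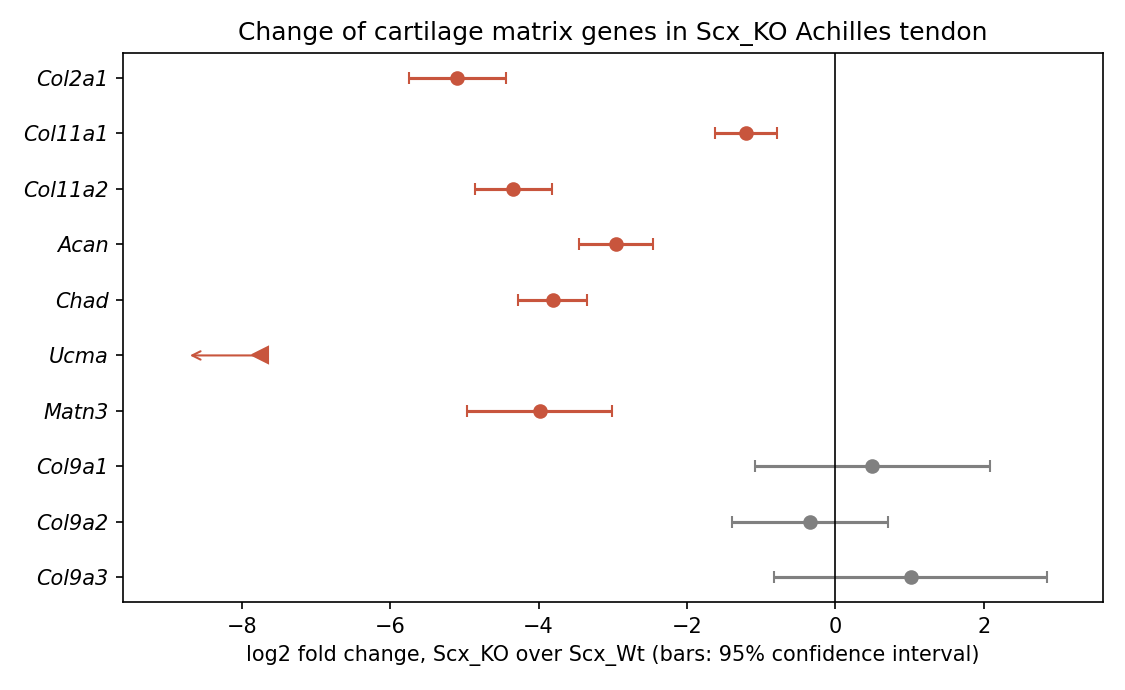
Log2 fold change of each gene, Scx_KO over Scx_Wt, with its 95% confidence interval (edgeR, 2 samples a genotype); red marks genes past an adjusted p of 0.05 and grey those that were not. The arrow of *Ucma*, which had 0 reads in Scx_KO, starts at its bound of at least 216-fold. The intervals of the 3 collagen IX genes span 0, and that of *Col11a1* lies nearer to 0 than those of the other genes that fell.

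Ordered by length-scaled level in Scx_Wt (RPKM, reads per kilobase of exon scaled to library size, mean ± SD, n = 2), the genes ran from *Col11a2* (248 ± 27.4) over *Chad* (143 ± 7.74), *Col2a1* (67.9 ± 4.68), *Col11a1* (60.9 ± 1.30), *Ucma* (30.3 ± 1.32), *Acan* (13.9 ± 0.0412), *Matn3* (5.04 ± 1.89), *Col9a2* (1.93 ± 0.0706) and *Col9a3* (0.474 ± 0.281) to *Col9a1* (0.246 ± 0.0516). Each Scx_Wt sample gave this same order. Only the ranges of *Col9a3* and *Col9a1* overlapped across the samples. In Scx_KO the order opened with *Col11a1* (25.7 ± 1.97), followed by *Col11a2* (11.9 ± 0.419) and *Chad* (9.92 ± 2.95). The ranges of *Col11a2* and *Chad* overlapped, but *Col11a2* was above *Chad* in each sample. *Col2a1* (1.93 ± 0.848), *Acan* (1.75 ± 0.587) and *Col9a2* (1.48 ± 0.853) came next, with ranges that overlapped each other. Within each Scx_KO sample *Col2a1* was still above *Col9a2* (2.53 against 2.08 and 1.33 against 0.878 RPKM), a difference that was not tested.

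Tendon collagen gave a second yardstick. *Col1a1*, the main chain of collagen I, had 947486 and 961553 reads in Scx_Wt and 463865 and 515128 in Scx_KO, a log2 fold change of -0.96 that did not pass (adjusted p = 0.148, edgeR). Per 1000 reads of *Col1a1*, *Col11a1* had 9.31 and 9.75 reads in Scx_Wt and 8.27 and 7.89 in Scx_KO, a ratio of the means of 1.18. *Col2a1* had 7.77 and 7.61 against 0.625 and 0.281 on the same scale, a ratio of 17.0, and the ratio was 10.3 for *Col11a2*, 7.03 for *Chad*, 8.24 for *Matn3* and 3.88 for *Acan*. *Col11a1* thus kept nearly its proportion to collagen I, whereas the other genes that fell did not. In whole tissue, fewer cells of a type and less RNA per cell cannot be told apart.

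Other genes of cartilage matrix moved in part with these. Of a list of 22, 18 were tested, 7 were lower and 2 were higher, and the median log2 fold change was -0.38 beside -0.0042 over all genes. The largest falls were those of *Clec3a* (769 and 451 reads against 30 and 29, log2 fold change -4.37 ± 0.32), *Scrg1* (75 and 46 against 2 and 6, -3.87 ± 0.75) and *Cilp2* (8309 and 8402 against 767 and 618, -3.60 ± 0.19). *Hapln1*, whose product links aggrecan to hyaluronan, fell by 2.45 (SE 0.44, adjusted p = 0.0159, edgeR), close to the fall of aggrecan itself. *Fmod* (fibromodulin, -1.89), *Prg4* (lubricin, -1.53) and *Comp* (cartilage oligomeric matrix protein, -0.86), all also genes of tendon, were the other 3 that fell. *Cilp* (3.51 ± 0.24) and *Prelp* (1.27 ± 0.26) were the 2 that rose. *Mgp* (-0.21), *Cnmd* (-0.05) and *Col27a1* (0.85) did not pass (adjusted p = 0.574, 0.969 and 0.0883, edgeR).

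None of the 3 SOX genes of the cartilage programme passed the test in the tendon. *Sox9* had 42 and 21 reads in Scx_Wt and 34 and 32 in Scx_KO. Its log2 fold change was 0.06 ± 0.59 (95% interval -1.26 to 1.38, adjusted p = 0.971, edgeR). That interval includes a change of 2-fold in either direction, so such a change is not excluded. *Sox6* stood at -0.03 ± 0.23 and *Sox5*, with 32 and 54 reads against 13 and 15, at -1.60 ± 0.62 (adjusted p = 0.970 and 0.219, edgeR). Of 18 chondrogenic regulators and signals, 14 were tested, none was higher and 2 were lower: the BMP receptor gene *Bmpr1b* (-2.07 ± 0.34) and *Trps1* (-1.21 ± 0.17). The median of the list was 0.0083.

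Markers of cartilage cells were present in part. *Cnmd* had 53 and 45 reads in Scx_Wt and *Pth1r* had 460 and 524. *Matn1* and *Snorc* had no read in any tendon, *Ihh* had 5, 3, 2 and 0 reads and *Col10a1* had 3, 0, 14 and 13 reads. Of 12 markers of fibrocartilage and hypertrophic chondrocytes, 8 were tested, 1 was lower (*Hapln1*) and none was higher, and their summed level was 79.3 to 80.4 CPM in Scx_Wt and 43.7 to 74.1 CPM in Scx_KO. Of 10 tenocyte markers, 5 were lower (*Tnmd*, *Fmod*, *Scx*, *Mkx* and *Kera*), and the summed level was 152621 to 165679 CPM in Scx_Wt and 72478 to 83457 CPM in Scx_KO.

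The tendons also differed in other tissues. The summed level of 8 skeletal muscle markers was 35068 and 60734 CPM in Scx_Wt and 77033 to 80745 CPM in Scx_KO, with none of the 8 past the test. Of 6 adipocyte markers, *Plin1* and *Fabp4* were lower, with a summed level of 1261 to 3224 CPM in Scx_Wt and 384 to 813 CPM in Scx_KO. The 5 nerve and Schwann cell markers summed to 693 to 709 CPM in Scx_Wt, to 6157 CPM in Scx_KO replicate 1 and to 54.8 CPM in Scx_KO replicate 2. *Col9a2* and *Col9a3* were also higher in Scx_KO replicate 1 than in replicate 2, as were *Col2a1*, *Col11a2*, *Acan* and *Chad*. *Col11a1*, *Matn3* and *Col9a1* were lower in replicate 1. Of 6 endothelial markers only *Kdr* was lower (856 to 865 CPM summed in Scx_Wt, 543 to 643 CPM in Scx_KO). None of the 6 blood and immune markers tested, of the 2 bone cell markers tested, or of the single markers tested for keratinocytes and pluripotent cells passed. Bone cell markers were at or near 0, with a summed level of at most 5.09 CPM in any tendon. The part of these other tissues in the falls was not tested.

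During tenogenic induction in culture the same genes split. *Col11a1*, *Col9a2* and *Chad* were higher at T9 than at T0, *Col2a1* was lower, *Col9a3* had its highest values on the 3 T6 plates, and *Col11a2* and *Col9a1* were not detected at all under TGF-β2. Of the 5 genes tested, 3 were higher at T3 than at T0 and none was lower, where 33.2% of the 13372 genes tested changed. From T3 to T6, 1 of 5 was higher (4.24% of all genes changed), from T6 to T9 none changed (1.62% of all genes), and from T0 to T9, 3 were higher and 1 was lower (45.2% of all genes). *Chad*, with no UMI at T0 and 4 at T3, passed the filter on low counts only through T6 and T9. Its direction against T0 and T3 was thus fixed beforehand. *Col11a2* and *Col9a1*, with UMIs at T0 only, were left out by the same filter. These counts are a description of the genes that passed. Over the step from T6 to T9, 2 of the 5 were lower at an unadjusted p under 0.05 (*Col2a1* and *Col9a3*), and DESeq2 called none.

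*Col11a1* was the most counted of the 10 genes in culture, with 7300 UMIs over the 12 plates. It had 46.2, 43.1 and 46.0 CPM on the T0 plates, 162, 231 and 158 CPM at T3, 283, 131 and 294 CPM at T6, and 201, 172 and 434 CPM at T9. Every treated plate was above every T0 plate. The log2 fold change was 2.24 ± 0.25 from T0 to T3 (adjusted p = 1.67e-05, edgeR) and 2.99 ± 0.26 from T0 to T9 (adjusted p = 6.96e-07, edgeR), while the later steps, 0.35 ± 0.24 and 0.40 ± 0.24, did not pass (adjusted p = 0.468 and 0.420, edgeR).

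Within each treated time point *Col11a1* was higher on the plates with more reads that matched no feature. On those plates its mean went from 45.1 CPM at T0 to 231, 288 and 434 CPM, and on the others the means of T3, T6 and T9 were 160, 131 and 186 CPM. With this division of the plates in the fit, the step from T6 to T9 passed (log2 fold change 0.58, adjusted p = 0.0221, edgeR). All 3 T0 plates are of the first kind, so that on those plates alone the rise from T0 to T9 rests on 1 plate at T9.

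*Col9a2* had 4.51, 3.71 and 2.15 CPM at T0, 2.08, 21.7 and 11.1 CPM at T3, 28.2, 14.6 and 41.9 CPM at T6, and 34.8, 16.4 and 44.8 CPM at T9. The T3 plates overlapped those of T0, and from T6 on every plate was above T0. Like *Col11a1*, *Col9a2* was higher within each treated time point on the plates with more reads that matched no feature. Its means at T3, T6 and T9 were 21.7, 35.0 and 44.8 CPM there and 6.62, 14.6 and 25.6 CPM on the others. The log2 fold change was 1.94 ± 0.55 at T3 (adjusted p = 0.0148, edgeR), 1.28 ± 0.47 from T3 to T6 (adjusted p = 0.155) and 3.64 ± 0.52 from T0 to T9 (adjusted p = 6.63e-05, edgeR). Its rise at T3 rested on single plates: the adjusted p was 0.0592 without T0 replicate 3 and 0.0975 without T3 replicate 2.

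*Chad* had no UMI in the 1147 cells at T0, 0, 1 and 3 UMIs on the T3 plates, 52, 41 and 28 at T6 and 34, 27 and 45 at T9. The level rose from 0.471 ± 0.530 CPM at T3 to 11.0 ± 3.76 CPM at T6 (SD, n = 3), with no overlap of the plates and a log2 fold change of 4.35 ± 0.66 (adjusted p = 0.00304, edgeR), and stood at 10.9 ± 3.46 CPM at T9. Against the 3 UMIs that a count of 0 allows over the T0 plates together (0.236 CPM), the pooled level was at least 45.5-fold higher at T6 and at least 45.7-fold higher at T9. At T3 it was at least 2.25-fold higher on 4 UMIs (adjusted p = 0.0417, edgeR), a call that was lost without T3 replicate 3 (adjusted p = 0.217), without each of the T0 plates in turn and with the division of the plates in the fit. Nearly all of the rise of *Chad* thus lay between T3 and T6.

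*Col2a1* went the other way. It had 14.0, 11.6 and 12.9 CPM on the T0 plates (65, 50 and 48 UMIs), 1.56, 5.90 and 6.97 CPM at T3, 2.56, 0.636 and 2.62 CPM at T6, and 0.272, 0.963 and 0.332 CPM at T9. All treated plates were below all T0 plates. The log2 fold change from T0 to T9 was -4.07 ± 0.63 (adjusted p = 0.000135, edgeR), spread over steps of -1.16, -1.30 and -1.60, none of which passed (adjusted p = 0.0753, 0.205 and 0.295, edgeR). The first of these steps did pass when the 6 plates of T0 and T3 were fitted alone (adjusted p = 0.0338, edgeR) and on the plates with more reads without a feature (0.0409), where T3 has 1 plate. At T9 the 3 plates held 5 UMIs of *Col2a1* in all.

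*Col9a3* had 2.36, 2.08 and 2.69 CPM at T0, 2.60, 2.21 and 1.74 CPM at T3, 9.21, 4.45 and 7.85 CPM at T6 and 1.09, 3.53 and 2.65 CPM at T9. Each T6 plate was above each plate of the other time points, but neither the step up (1.71 ± 0.49, adjusted p = 0.0681) nor the step down (-1.31 ± 0.47, adjusted p = 0.189) passed in edgeR, and T9 against T0 stood at 0.49 ± 0.49 (adjusted p = 0.441). The step up passed by DESeq2 (adjusted p = 0.0408) and with the division of the plates in the fit (adjusted p = 0.0331).

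**Figure D4:**
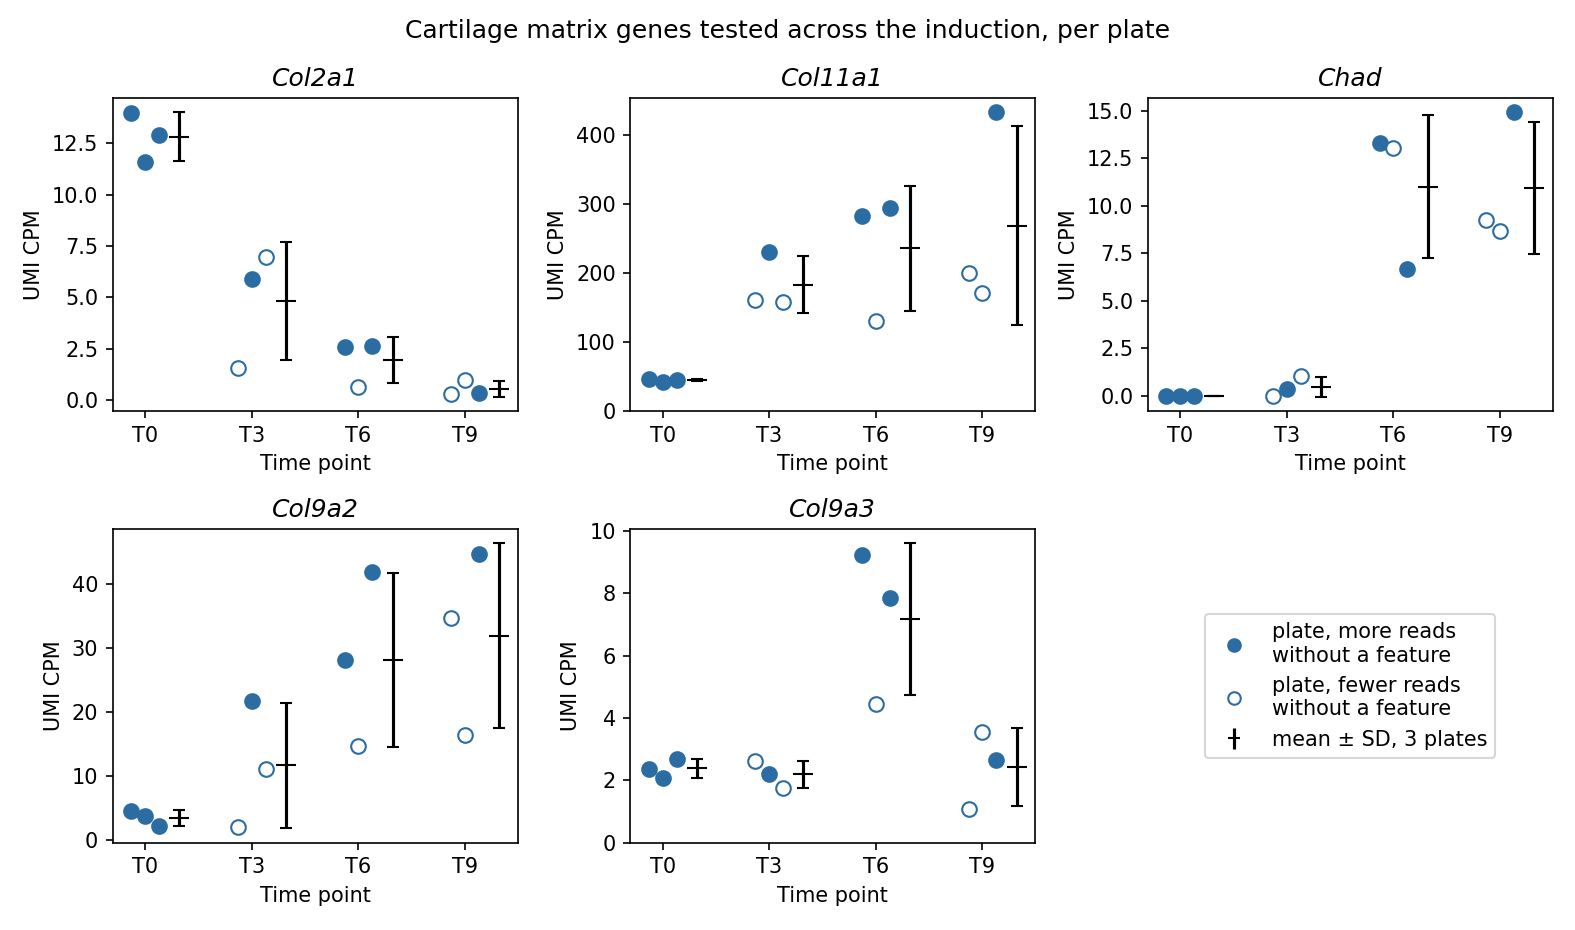
Level of the 5 tested genes on each of the 12 plates, in UMI CPM (linear axes, one scale a panel); each point is 1 plate, filled for plates with more reads that matched no feature and open for those with fewer, with the mean ± SD of 3 plates beside them. *Col2a1* falls below all T0 plates from T3 on, *Col11a1* lies above them, and *Chad*, with 4 UMIs over the T3 plates, is at 11.0 ± 3.76 CPM at T6.

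The other 5 genes were too scarce to test. *Col11a2*, the highest of all in the wild type tendon, had 2 UMIs on each T0 plate and none on the 9 treated plates, which allows a level of up to 0.105 CPM there. *Col9a1* had 4 UMIs, all on T0 replicate 3. *Ucma* had 34 UMIs over all plates, between 0 and 8 a plate, with 4, 12, 12 and 6 in the 4 time points. *Matn3* had 21, 1, 10 and 24 UMIs from T0 to T9, at 1.66 ± 0.251, 0.174 ± 0.301, 0.844 ± 0.463 and 2.43 ± 0.438 CPM. *Acan* had 9, 3, 1 and 13 UMIs, and 6 of the 8 T0 cells that held one were pluripotent-like (at least 4 of 7 pluripotency markers detected), a class of 68 of the 1147 T0 cells. At T9 none of the 8 cells with *Acan* was of that class.

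By cell, *Col11a1* was found in many cells and *Chad* in few. A UMI of *Col11a1* was found in 29.2 ± 1.52% of T0 cells and in 44.5 ± 16.4, 63.8 ± 19.5 and 58.7 ± 11.7% of those of T3, T6 and T9 (SD, n = 3 plates). With all cells thinned to 3000 UMIs the shares were 10.9, 31.9, 39.9 and 40.5%. Among the pluripotent-like cells, which had a median of 18080 UMIs at T0, the unthinned share was 13.2% at T0, 38.5% of 13 cells at T3 and 30.8% of 13 cells at T9. How much of these shares is free RNA was not tested. *Chad* was found in 53 cells at T6 (4.62 ± 2.19%) and 47 at T9 (4.09 ± 1.28%), with up to 13 UMIs in 1 cell. The 10 cells with most held 53.7 and 52.8% of its UMIs. Such shares were not particular to *Chad*: they were 49.5% for *Col9a2* at T3 (95 UMIs) and 60.9% for *Col9a3* at T9 (23 UMIs). At T6 they were lower for these 2 genes, at 23.8 and 34.9%. No pluripotent-like cell held a UMI of *Chad*, and 0 of 1147 cells at T0 allows a share of cells with a UMI, not of cells that express the gene, of up to 0.262%. *Col2a1* was found in 10.6 ± 2.10% of cells at T0 and in 4 cells at T9. Shares of this kind cover counting error and depth as well as expression.

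Cells with a UMI of *Tnmd* were set beside those without on the same plates, each as CPM over the summed cells. At T6, *Chad* was at 24.5 ± 5.75 CPM with *Tnmd* and 8.73 ± 4.05 CPM without, and *Col11a1* at 385 ± 133 and 210 ± 86.5 CPM, both higher with *Tnmd* on 3 of 3 plates. At T9 *Col11a1* was again higher on 3 of 3 plates (372 ± 223 against 252 ± 136 CPM), while *Chad* was higher on 2 of 3 (13.1 ± 14.7 against 10.7 ± 2.17 CPM). The 3 pairs allow no exact two-sided p under 0.25, so no test was made.

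At T3 and T6 most UMIs of *Col2a1* were in cells with a UMI of *Scx*, which were also most cells. At T3, 38 of the 39 UMIs of *Col2a1* came from the 933 cells with a UMI of *Scx* and 1 from the 218 cells without, and at T6 22 of 23 came from 909 cells with *Scx*. The levels at T3 were 5.57 ± 3.20 and 0.783 ± 1.36 CPM, higher with *Scx* on 3 of 3 plates. Already at T0 the 56 cells with *Scx* had 27.8 ± 14.1 CPM against 11.9 ± 1.21 CPM in the others, again on 3 of 3 plates, from 20 and 143 UMIs. *Chad* at T6 was also higher with *Scx* on 3 of 3 plates (12.6 ± 3.92 against 3.30 ± 3.11 CPM). At T9, 2 UMIs of *Col2a1* were in cells with *Scx* and 3 in those without (0.453 ± 0.413 and 0.485 ± 0.839 CPM), and *Chad* was higher with *Scx* on 2 of 3 plates (13.8 ± 8.43 against 8.75 ± 0.618 CPM).

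The cells were divided by *Sox9* in the same way. Its own level lay between 82.0 ± 35.6 CPM (T9) and 158 ± 35.8 CPM (T6), and its log2 fold changes of -0.14, 0.38 and -0.74 by step and -0.50 from T0 to T9 did not pass the threshold (adjusted p = 0.628, 0.337, 0.0865 and 0.0558, edgeR). *Col11a1* was at 254 ± 30.9 CPM in T3 cells with a UMI of *Sox9* and 158 ± 37.9 CPM in those without, higher on 3 of 3 plates of each treated time point. *Col2a1* at T0 was at 13.5 ± 1.55 and 11.8 ± 0.764 CPM, higher on 3 of 3 plates, as at T3, and at T6 it was higher on 2 of 3. At T9 none of the 5 UMIs of *Col2a1* came from the 273 cells with *Sox9*.

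Of the other cartilage matrix genes, most of those tested in culture went up, among them *Fmod* and *Prg4*, which are also genes of tendon. Of the 18 genes of that list found in the plates, 11 were tested, and from T0 to T9 9 were higher and 1 lower. The median, held by *Papss2*, was 4.64, beside -0.016 over all genes. *Matn1*, *Cnmd*, *Col10a1*, *Epyc* and *Scrg1* were too scarce to test, with no more than 3 UMIs at any time point. The largest rises with UMIs at T0 were those of *Cilp* (0.161 ± 0.142 to 317 ± 103 CPM) and *Fmod* (0.375 ± 0.351 to 123 ± 52.5 CPM), and *Mgp*, a Gla protein like that of *Ucma*, had no UMI at T0 and 4126 ± 704 CPM at T9. *Prg4* and *Col27a1* rose as well (log2 fold change 4.12 ± 0.54 and 2.55 ± 0.47, adjusted p = 3.38e-05 and 0.000607, edgeR). The one that fell was *Hapln1*, from 40.6 ± 2.67 CPM at T0 to 0.654 ± 0.861 CPM at T9 (-5.28 ± 0.53, adjusted p = 2.93e-06, edgeR), the same direction as *Col2a1*. By step, 8 of the list were higher and 1 lower at T3, 4 higher from T3 to T6, and none passed from T6 to T9.

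Of 17 regulators and signals found in the plates, 10 were tested, and from T0 to T9 1 was higher (*Runx3*, 1.75 ± 0.61) and 4 were lower, among them *Sox5* (-1.61 ± 0.49) and *Sox6* (-1.36 ± 0.43) (adjusted p = 0.0300, 0.0152 and 0.0190, edgeR). The median of the list was -0.17. Of 5 chondrocyte markers tested, 2 were lower at T9 than at T0 (*Hapln1* and *Pth1r*) and none was higher. All 10 tenocyte markers were higher at T9 than at T0. Their summed level at T9 was 14453 to 41692 CPM, highest on T9 replicate 3, the plate that also had the most *Col11a1* and *Col9a2*. T9 replicate 3 was also the only T9 plate with more reads that matched no feature. That plate had 0.332 CPM of summed pluripotency markers, where the other T9 plates had 155 and 283 CPM, and the part of this in the levels of the cartilage genes was not tested.

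Over the 12 plates, the genes most like each member in log2 CPM (highest Pearson correlation, n = 12 plates that share time points and depth) were *Fstl1*, *Atp2b4* and *Gria3* for *Col11a1* (r = 0.989, 0.986 and 0.986), *Gpr50* for *Chad* (0.987; only the closest is given), *Acvrl1*, *Plekhf1* and *Ramp3* for *Col9a2* (0.973, 0.972 and 0.970), *Chaf1a*, *Gm8850* and *Cbx1* for *Col2a1* (0.974, 0.973 and 0.972) and *Wsb2*, *Cpt1a* and *Pou6f1* for *Col9a3* (0.851, 0.838 and 0.830). Among the tested genes themselves, *Col11a1* and *Col9a2* were at 0.829, *Chad* and *Col9a2* at 0.822, and *Col2a1* and *Chad* at -0.813. *Col9a2* and *Col9a3*, which encode chains of 1 protein, were at 0.315.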

How the data were processed

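The authors deposited 2 count tables, which were used as they stand: read counts per gene for the 4 Achilles tendon libraries (per the labels, poly(A) RNA, a directional kit, HISAT2 version 2.0.4, featureCounts version 1.5.0) and UMI counts per gene and well for the 12 CEL-Seq2 plates (UMI-tools version 1.0.1, HISAT2 version 2.2.1, featureCounts), both on GRCm38. CEL-Seq2 reads the 3′ end, so plate counts were not scaled by length. The study's tools come from the submitters' processing notes, and strand settings are not given in the sources used here. In the single-cell table, 3 entries outside Ensembl (0.0642% of UMIs) were left out. The plates share 384 well barcodes by design.

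Wells with at least 200 detected genes were summed per plate, since cells of a plate are not replicates. The 12 plates were fitted together by time point, and the 4 tendon libraries by genotype, with the edgeR quasi-likelihood test (version 4.0.16, R version 4.3.3) after filterByExpr and TMM scaling. P-values were Benjamini-Hochberg adjusted over all genes tested (13372 and 14602), with a threshold of 0.05. DESeq2 (version 1.42.0) and the other settings in the closing section were alternatives. CPM scales counts to the library total, RPKM also to the union exon length of GENCODE vM21, and a count of 0 was read as at most 3 counts. Floors cover counting error only. The standard errors and intervals were derived from the log2 fold change and F statistic of each edgeR test. In these tests the estimate of the spread between samples is partly shared across genes. The scripts were tested on simulated counts in which 200 of the better counted genes were changed 3-fold. For the tendon, 148 of the 200 were recovered with 20 false calls. For T9 against T0, 162 were recovered with 10 false calls. All 10 genes are described, with other genes named by fixed rules from lists. Part of the list of genes most like *Chad* is not reported here. The genes and lists were chosen with earlier results of these data known.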

Additional observations from a re-analysis of the deposited data

How the results depend on the processing

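In the tendon, 7 of the 10 genes were lower and none higher under every alternative tried (DESeq2, RLE size factors, no filter on low counts, a replicate block, library size without TMM, and leaving out each sample, 7 to 7), while the number of all genes called went from 560 to 1415 without the filter, to 1108 with the replicate block, and to between 380 and 666 on leaving out a sample. The fits that leave out 1 of 2 samples assume that the lone sample varies like the other genotype. Leaving out a sample took *Col9a2* from -1.06 to 0.12 (without Scx_KO replicates 1 and 2) and *Col9a3* from -0.73 to 1.78. From T0 to T9, 3 higher and 1 lower held under every alternative. From T0 to T3 the count of 3 higher and none lower fell to 1 with library size only, to 2 with the replicate block and with the division of the plates as a covariate, and was 1 to 3 on leaving out a plate. It was 2 higher and 1 lower (*Col2a1*) with only the 6 plates compared, and 2 higher and 2 lower (*Col2a1* and *Matn3*, which did not pass the filter on low counts over the 12 plates) on the plates with more reads without a feature. From T3 to T6 it was 2 by DESeq2, without the filter, with that covariate and with a minimum of 1000 genes a well, and 1 to 2 on leaving out a plate. From T6 to T9 it was 1 (*Col11a1*) with that covariate and on the plates with more reads without a feature alone, and 0 to 0 on leaving out a plate. These plates are 1 at T3 and 1 at T9, which are assumed to vary like those of the other time points. This setting and library size only were chosen after seeing the data. *Col9a3* from T0 to T3 turned to -0.32 with a minimum of 1000 genes, -0.13 to 0.21 on leaving out a plate (lowest without T3 replicate 1), -0.14 with library size only and -0.14 on the plates with more reads without a feature. *Chad* from T6 to T9 went from -0.11 (without T6 replicate 3) to 0.48 on leaving out a plate and turned to -0.0069 with library size only. All genes called from T3 to T6 numbered 567, against 899 (DESeq2), 1010 (no filter), 1483 (covariate), 264 (only the 6 plates compared), 299 (library size only) and 291 to 890 on leaving out a plate. From T6 to T9 they numbered 217, against 568, 684, 813, 45 and 90 in the same order, 113 with the replicate block, 330 on the plates with more reads without a feature and 35 to 852 on leaving out a plate. Leaving out a plate gave 3001 to 4405 calls from T0 to T3 and 4774 to 6491 from T0 to T9. Library size only shifted the median of all genes by -0.21 from T0 to T3, -0.25 from T6 to T9 and -0.49 from T0 to T9, and changed the calls from 2279 higher and 2160 lower to 1524 and 2369, from 125 and 92 to 27 and 63, and from 3155 and 2895 to 1755 and 4468. Plates of equal number showed no steady pairing (correlations of their deviations -0.56 to 0.503). With 2 tendons a genotype the deviations mirror each other, so the correlation can only be 0.0845 or -0.0845. It cannot decide whether equal numbers pair the tendons. Beside the counts above, the replicate block took *Chad* from T0 to T3 to an adjusted p of 0.0652 (edgeR). The cause of these shifts was not tested. Depth limits *Col11a2*, *Acan*, *Ucma*, *Matn3* and *Col9a1* in culture and the collagen IX genes in the tendon.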
